A study of Macaca mulatta with 136 samples.

Results

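The neural retina was compared with the RPE/choroid at the perimacula, the zone of retina that surrounds the central macula, in the rhesus macaque. The comparison used 8 of the 32 libraries of the study, 4 of neural retina and 4 of RPE/choroid, chosen by their tissue and location labels, and the 2 tissues came from the same 4 eyes. The eyes were the right eye (OD) and the left eye (OS) of 2 adult animals, RM03 and RM04, taken after death, and no treatment was labelled. Each library came from a punch of 2 mm that was separated by dissection into the neural retina and the pigment epithelium with the vascular choroid beneath it, and RNA with an integrity number above 6.5 was sequenced after poly-A selection. The other 24 libraries came from the fovea/macula, the nasal location and the periphery of the same eyes and were used only where the tissue difference was compared between locations. Values by eye are given in the order RM03 OD, RM03 OS, RM04 OD and RM04 OS.

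The neural retina holds the rod and cone photoreceptors, the bipolar, horizontal, amacrine and ganglion cells that carry their signal to the brain, and the Müller glia that span the layer. The retinal pigment epithelium (RPE) lies against the photoreceptor outer segments, engulfs their shed tips, recycles the visual chromophore and forms the outer blood-retina barrier, and the choroid behind it is a pigmented tissue of vessels, melanocytes, fibroblasts, nerves and immune cells. Glucose and oxygen for the photoreceptors come largely from the choroid across the pigment epithelium. In these bulk samples, fewer cells of a type and less RNA per cell cannot be told apart.

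The retina libraries held between 42448891 and 57150491 estimated counts and the RPE/choroid libraries between 52455814 and 66331817. All 8 were sequenced on 5 lanes of the same 2 flow cells, so that tissue and flow cell were not confounded. Levels are given as CPM, counts scaled to the library size with TMM factors, which can be compared between libraries for a gene but not between genes of different length. A log2 fold change is positive where the gene was higher in retina, stands with its standard error, and came from 4 libraries in each tissue with the animal as a covariate. The adjusted p is that of edgeR's quasi-likelihood test with Benjamini-Hochberg adjustment over all genes tested, and a gene is called at an adjusted p under 0.05. The 4 libraries of a tissue come from 2 animals, so the p-values measure the spread between these eyes.

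The tissues differed in most of what they expressed. Of 15544 genes tested, 11824 were called (76.1%), with 6002 higher in retina (38.6%) and 5822 higher in RPE/choroid (37.5%). For each gene list below, the count higher in a tissue is to be read against that tissue's share of all genes. A called difference of at least 4-fold was reached by 1847 genes in retina (11.9%) and by 2686 genes in RPE/choroid (17.3%), and one of at least 64-fold by 403 and 382 genes. The median log2 fold change over all genes was 0.03, and the median size of the difference was 0.97 beside a median standard error of 0.16. For 10941 genes (70.4%), the 4 libraries of a tissue all lay above the 4 of the other. At the other end, 1889 genes (12.2%) had a 95% interval of the log2 fold change that lay within -0.5 to 0.5.

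**Figure D1:**
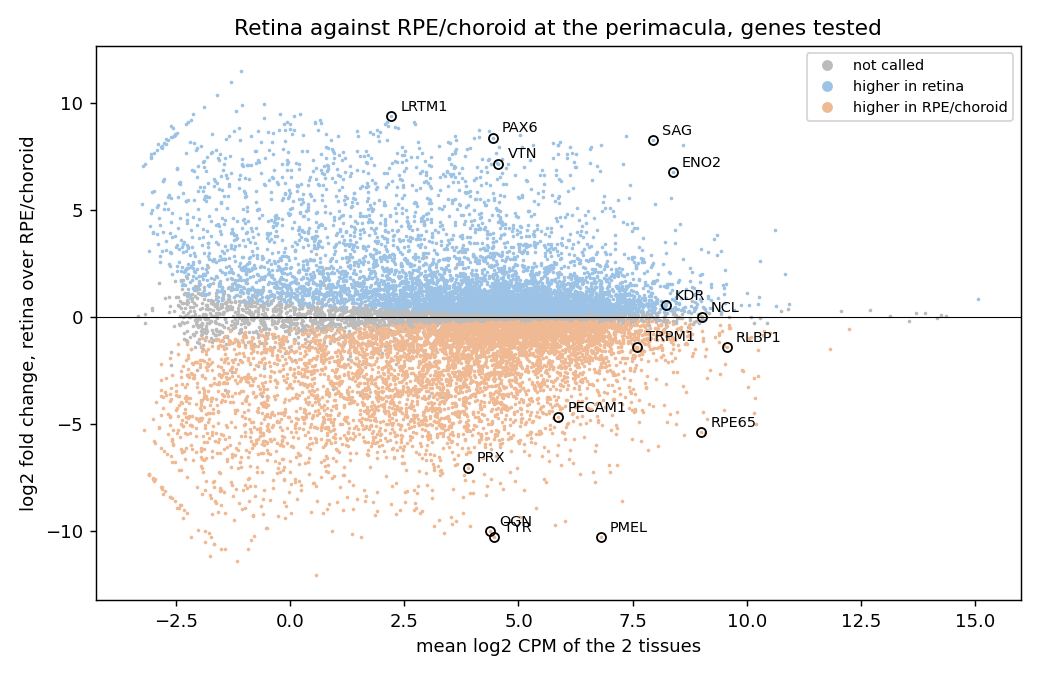
Each point is a gene tested, with the mean log2 CPM of the 2 tissues on the x axis and the log2 fold change, retina over RPE/choroid, on the y axis; blue points were called higher in retina, orange points higher in RPE/choroid, and grey points were not called. Differences reached beyond 8 log2 units in both directions, from LRTM1 and PAX6 at the top to TYR and PMEL at the bottom, while NCL lay at 0.

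The 12 largest differences toward retina, taken from called genes without overlap between the tissues and with at least 5 log2 CPM on average in retina, included receptors, transmitter enzymes and synapse proteins of inner retinal neurons. LRTM1, a leucine-rich repeat membrane protein, was at 109.8, 96.6, 117 and 135 CPM in retina and at 0.111, 0.163, 0.0821 and 0.332 CPM in RPE/choroid (log2 fold change 9.41 ± 0.32, adjusted p = 1.75e-07). GRM6, the glutamate receptor of ON bipolar cells, followed with 9.11 ± 0.35, the transcription factor gene NEUROD4 with 9.11 ± 0.32, and SLC17A6, the vesicular glutamate transporter of ganglion cells, with 9.05 ± 0.43. GAD1, which makes the transmitter GABA, differed by 8.85 ± 0.37, the calcium-binding protein gene CALB1 by 8.77 ± 0.43, and GABRR1, a GABA receptor subunit, by 8.77 ± 0.19. LINGO3, TMEM196, GSG1, SYNDIG1L and CPLX3 completed the group, with log2 fold changes between 8.70 and 9.01. None of the 12 exceeded 1.48 CPM, the highest RPE/choroid level of CPLX3, in any RPE/choroid library.

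By the same rule, the 12 largest differences toward RPE/choroid included pigment, matrix, macrophage and antibody genes. TYR, tyrosinase, the enzyme that starts melanin synthesis, was at 0.513, 0.748, 0.5503 and 0.649 CPM in retina and at 772, 806, 863 and 642 CPM in RPE/choroid (-10.28 ± 0.20, adjusted p = 4.54e-08), and PMEL, which forms the fibrils of the melanosome, at 3.64, 2.899, 3.13 and 3.04 CPM and 4515, 5122, 3448 and 2922 CPM (-10.27 ± 0.22, adjusted p = 4.56e-08). No library of a tissue came near those of the other for these genes. OGN, the matrix proteoglycan osteoglycin, differed by -9.99 ± 0.14, CPXM1, a carboxypeptidase-like protein, by -10.08 ± 0.20, CHIT1, the chitinase of macrophages, by -9.75 ± 0.20, and IGF2, a growth factor, by -9.73 ± 0.29. Antibody genes made up 4 of the 12, namely IGHV6-1 (-12.05 ± 0.72), IGLV10-54 (-10.12 ± 0.24), IGLC7 (-9.99 ± 0.75) and IGHG4 (-9.74 ± 0.66), and several identifiers carry the symbols IGHV6-1 and IGHG4, so these entries are uncertain. SFRP4, a secreted Wnt modulator, differed by -10.25 ± 1.33 with 159.99, 7.33, 62.99 and 250.3 CPM in the RPE/choroid libraries, and SCGB3A2, a secretoglobin, by -9.64 ± 0.29.

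Photoreceptor genes were higher in retina by wide margins. All 15 rod phototransduction genes tested were higher in retina, where 38.6% of all genes were, with a median log2 fold change of 7.16, as were all 14 genes of the outer segment and cilium, with a median of 7.29. SAG, the rod arrestin, was at 4753, 4547, 6305 and 3807 CPM in retina and at 30.1, 7.298, 6.204 and 19.7 CPM in RPE/choroid (8.28 ± 0.69, adjusted p = 1.51e-05). PDE6B, a subunit of the rod phosphodiesterase, was at 918, 974, 1052 and 558 CPM and 9.64, 2.76, 2.56 and 3.45 CPM (7.65 ± 0.53, adjusted p = 5.24e-06). CNGA1, a subunit of the rod cation channel, was at 772, 676, 549.5 and 423 CPM and 4.71, 0.845, 1.05 and 3.06 CPM (7.96 ± 0.65, adjusted p = 1.33e-05). In RPE/choroid these rod genes were highest in RM03 OD. GNB1, a G protein subunit that rods share with many other cells, had a smaller difference, with 6901, 6381, 7349 and 5309 CPM in retina and 373, 381, 361 and 413 CPM in RPE/choroid (4.08 ± 0.15, adjusted p = 2.63e-07).

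Among the outer segment and cilium genes, PROM1, a protein of the growing disc edge, was at 855, 714, 805 and 667 CPM in retina and at 17.5, 12.7, 48.98 and 28.4 CPM in RPE/choroid (4.97 ± 0.39, adjusted p = 1.05e-05). RP1, a protein of the ciliary axoneme, was at 1933, 1641, 1689.5 and 1383 CPM and 13.1, 2.36, 4.71 and 6.54 CPM (7.97 ± 0.59, adjusted p = 8.02e-06), and RPGRIP1, a protein of the connecting cilium, at 245, 209, 158 and 149.6 CPM and 1.95, 0.3901, 0.525 and 0.858 CPM (7.69 ± 0.48, adjusted p = 3.11e-06). ABCA4, the transporter that clears retinal from the discs, stood apart from the group with 2496, 2337, 2607 and 1788 CPM in retina and 119, 172, 126 and 325 CPM in RPE/choroid (3.67 ± 0.36, adjusted p = 3.97e-05), the smallest difference of the 14 genes. Its level in RPE/choroid was 4.77 to 18.2% of that in the retina of the same eye, against 0.144 to 0.676% for RP1.

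Cone genes were higher in retina for 9 of 10 tested, with a median log2 fold change of 6.46. ARR3, the cone arrestin, was at 687, 608, 626 and 724 CPM in retina and at 22.3, 2.26, 2.396 and 4.47 CPM in RPE/choroid (6.65 ± 0.85, adjusted p = 1.82e-04), with the RM03 OD library of RPE/choroid far above the other 3. GNAT2, the cone transducin subunit, was at 135, 105, 127 and 184 CPM and 3.79, 1.64, 0.722 and 1.05 CPM (6.38 ± 0.54, adjusted p = 1.71e-05). PDE6C, the cone phosphodiesterase, was at 124, 106, 81.7 and 116 CPM and 4.16, 1.79, 0.148 and 0.4097 CPM (6.53 ± 0.75, adjusted p = 9.72e-05), and CNGA3, a subunit of the cone channel, at 32.1, 30.9, 34.97 and 43.99 CPM and 1.903, 0.894, 2.48 and 1.697 CPM (4.36 ± 0.26, adjusted p = 2.51e-06). The partner subunit of that channel went the other way. CNGB3 was at 31.9, 29.1, 53.2 and 71.02 CPM in retina and at 72.5, 126, 133 and 283 CPM in RPE/choroid (-1.72 ± 0.27, adjusted p = 5.78e-04), and every RPE/choroid library lay above every retina library.

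Bipolar cell genes were higher in retina for 12 of 13 tested, with a median of 5.88. GRM6 was at 86.7, 124, 103 and 76.2 CPM in retina and at 0.159, 0.06502, 0.246 and 0.234 CPM in RPE/choroid (adjusted p = 3.17e-07). TRPM1, the channel that GRM6 signalling gates in ON bipolar cells and that melanocytes also express, was the exception, at 125, 122, 111 and 122 CPM in retina and 236, 275, 434 and 323 CPM in RPE/choroid (-1.37 ± 0.16, adjusted p = 1.20e-04). PRKCA, a kinase of rod bipolar cells, had a modest difference, with 48.97, 44.2, 56.2 and 49.9 CPM in retina and 31.7, 14.7, 15.7 and 18.1 CPM in RPE/choroid (1.33 ± 0.25, adjusted p = 0.00161).

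Of 16 genes of horizontal and amacrine cells, 14 were higher in retina and 2 were not called, TFAP2A (-0.33 ± 0.17) and CHAT (1.76 ± 0.73), and the median was 5.16. GAD1 was at 96.6, 93.5, 136 and 116 CPM in retina and at 0.333, 0.0488, 0.246 and 0.332 CPM in RPE/choroid (adjusted p = 4.46e-07). ONECUT1, a transcription factor of horizontal cells, was at 18.2, 11.1, 13.7 and 13.1 CPM and 0.0159, 0.0163, 0.0164 and 0.0195 CPM (9.52 ± 0.29, adjusted p = 1.18e-07), which left it nearly absent from RPE/choroid. TFAP2B, a transcription factor of amacrine cells, was at 89.05, 100.5, 116 and 91.4 CPM and 3.28, 1.98, 3.59 and 4.94 CPM (4.88 ± 0.24, adjusted p = 8.60e-07). SLC6A9, a glycine transporter, was also well expressed in RPE/choroid, with 62.03, 113, 69.6 and 141 CPM beside 159, 180.1, 238 and 182 CPM in retina (0.98 ± 0.26, adjusted p = 0.0094).

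Ganglion cell genes were higher in retina for 12 of 14, with a median of 6.90. NEFL, the light neurofilament, was at 1091, 1011, 709 and 1518 CPM in retina and at 4.71, 1.203, 1.94 and 9.27 CPM in RPE/choroid (8.05 ± 0.76, adjusted p = 3.18e-05). POU4F1, a transcription factor of ganglion cells, was at 6.399, 9.84, 7.54 and 11.7 CPM and 0.0793, 0.0488, 0.0164 and 0.0975 CPM (7.16 ± 0.43, adjusted p = 2.45e-06), and SLC17A6 at 130.2, 129.7, 101 and 249.7 CPM and 0.301, 0.146, 0.246 and 0.468 CPM (adjusted p = 7.65e-07). The RNA-binding protein genes RBPMS and RBPMS2, both widely used to mark ganglion cells, did not share this direction. RBPMS was at 116, 104, 89.9 and 228 CPM in retina and at 193, 209.8, 178 and 157 CPM in RPE/choroid (-0.47 ± 0.29, adjusted p = 0.174), a difference that was not called with the RM04 OS retina library included, and that was -0.90 with an adjusted p of 1.11e-04 without it. RBPMS2 was higher in RPE/choroid (-1.89 ± 0.15, adjusted p = 1.04e-05).

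Genes of synapses and vesicles were higher in retina for 19 of 20, with a median of 4.33. SYT1, the calcium sensor of vesicle release, was at 838, 756, 760.01 and 835 CPM in retina and at 71.9, 19.4, 30.5 and 34.4 CPM in RPE/choroid (4.37 ± 0.41, adjusted p = 2.85e-05). SNAP25, a protein of the fusion machinery, was at 1486, 1335, 1302 and 1834 CPM and 18.6, 12.9, 34.9 and 19.9 CPM (6.16 ± 0.30, adjusted p = 9.28e-07). SLC17A7, the vesicular glutamate transporter of photoreceptors and bipolar cells, was at 1273, 1164, 1016 and 883 CPM and 10.7, 2.86, 3.12 and 5.21 CPM (7.66 ± 0.49, adjusted p = 3.43e-06). CPLX3, the complexin of ribbon synapses, was even across eyes in retina, at 394, 404, 469 and 406 CPM, and lay at 1.17, 0.585, 0.837 and 1.48 CPM in RPE/choroid (8.69 ± 0.30, adjusted p = 1.87e-07). STX1A, a syntaxin, was the exception, with -0.76 ± 0.16 (adjusted p = 0.00279).

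Müller glia and astrocyte genes were divided, with a median of 2.14. Of 14 tested, 8 were higher in retina (38.6% of all genes were), 3 were higher in RPE/choroid (37.5%) and 3 were not called. SLC1A3, the glutamate transporter of Müller glia, was at 395, 373, 431 and 444 CPM in retina and at 27.8, 31.8, 13.7 and 10.9 CPM in RPE/choroid (4.42 ± 0.33, adjusted p = 7.86e-06), and AQP4, their water channel, at 69.4, 67.01, 90.2 and 79.7 CPM and 4.33, 7.01, 1.92 and 1.76 CPM (4.52 ± 0.44, adjusted p = 3.62e-05). For both genes the RPE/choroid levels were lower in RM04 than in RM03, and the tissue difference was larger in RM04, by 1.46 ± 0.20 (adjusted p = 0.0242) and by 1.94 ± 0.31 (adjusted p = 0.0365) on the log2 scale. GLUL, glutamine synthetase, was at 824, 821, 764 and 726 CPM in retina and at 646, 617, 993 and 924 CPM in RPE/choroid (0.01 ± 0.16, 95% interval -0.36 to 0.37), although 2 identifiers carry this symbol and the entry is uncertain. That mean combined opposite signs, 0.352 and 0.411 in the eyes of RM03 and -0.379 and -0.348 in those of RM04. The difference between the animals was not called (-0.745 ± 0.162, adjusted p = 0.0819). GFAP, the intermediate filament of astrocytes, was at 28.7, 36.5, 13.01 and 12.4 CPM in retina and at 146, 7.33, 1.07 and 30.5 CPM in RPE/choroid (-0.78 ± 1.04, adjusted p = 0.513). Its RPE/choroid level was above the retina in RM03 OD and RM04 OS and below it in RM03 OS and RM04 OD. The RPE/choroid libraries of RM03 OD and RM04 OS were left out in an alternative chosen after the values were seen. The GFAP difference was then 2.75, a direction set by which libraries were removed. The 3 genes higher in RPE/choroid were RGR (-5.05 ± 0.40) and RLBP1 (-1.41 ± 0.41), which the pigment epithelium also expresses, and ALDH1L1 (-1.65 ± 0.17).

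**Figure D2:**
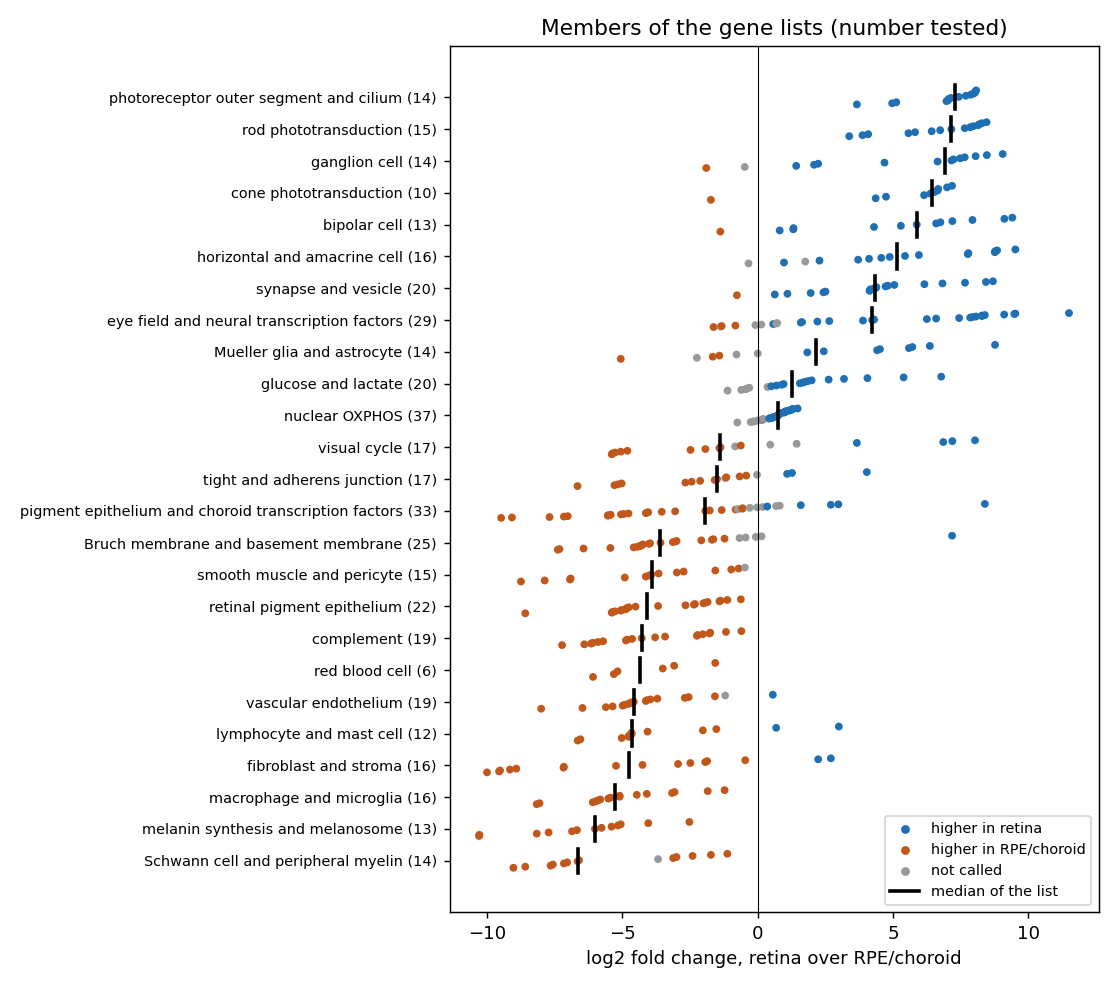
Log2 fold change, retina over RPE/choroid (x axis), of every tested member of each gene list, with the lists on the y axis and the number of members tested in parentheses; points are coloured by the call, and black bars are medians. Neuronal lists lie to the right and pigment, vessel, stroma, glia of nerves and immune lists to the left, and single members such as CNGB3, TRPM1, KDR and VTN lie across 0 from their list.

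Pigment epithelium genes were higher in RPE/choroid for all 22 tested, against 37.5% of all genes, 15 of them by at least 4-fold, against 17.3%, with a median of -4.09. RPE65, the isomerase that regenerates 11-cis retinoid, was at 53.2, 102, 78.7 and 91.9 CPM in retina and at 1570.3, 2801, 4291 and 6268 CPM in RPE/choroid (-5.38 ± 0.41, adjusted p = 9.08e-06). BEST1, a chloride channel of the basal membrane, was at 8.23, 13.1, 22.4 and 14.5 CPM and 230.4, 381, 389 and 698 CPM (-4.86 ± 0.31, adjusted p = 3.75e-06), and TTR, transthyretin, at 45.6, 61.9, 73.1 and 47.3 CPM and 1028, 1636, 1909 and 2274 CPM (-4.88 ± 0.26, adjusted p = 1.46e-06). LRAT, which esterifies retinol, was at 11.6, 27.3, 25.4 and 23.2 CPM and 442, 837, 868 and 1308 CPM (-5.26 ± 0.38, adjusted p = 6.65e-06). In RPE/choroid, each of these 4 genes was lowest in RM03 OD and highest in RM04 OS, and the summed CPM of the list ranged from 9957 to 22750.0 over the 4 libraries. The members with the smallest differences were RDH11 (-0.62 ± 0.24), ITGAV (-1.11 ± 0.21), RDH10 (-1.37 ± 0.41) and RLBP1 (-1.41 ± 0.41).

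The visual cycle was split between the tissues. Of 17 genes, 4 were higher in retina (38.6% of all genes were) and 10 were higher in RPE/choroid (37.5%). The 3 not called were RBP4, RDH13 and DHRS9. On the photoreceptor side, RBP3, the retinoid carrier of the space between the tissues, was at 6067, 7925, 10597 and 5632 CPM in retina and at 78.2, 10.3, 7.89 and 29.6 CPM in RPE/choroid (8.03 ± 0.93). The retinol dehydrogenases of photoreceptors, RDH8 (6.86 ± 0.34) and RDH12 (7.19 ± 0.40), and ABCA4 (3.67 ± 0.36) made up the rest. On the epithelial side, RPE65 and LRAT were joined by the opsin-like RGR (-5.05 ± 0.40) and the retinol-binding protein receptor STRA6 (-4.81 ± 0.38). RLBP1, the retinaldehyde-binding protein of pigment epithelium and Müller glia, was high in both, at 499.7, 594, 535 and 286 CPM in retina and 616, 1053, 1513 and 2276 CPM in RPE/choroid (adjusted p = 0.0136). The call for RLBP1 was lost when only the eyes of RM03 were fitted (-0.62, adjusted p = 0.11). RDH5, the 11-cis retinol dehydrogenase, whose entry is listed under the macaque symbol BLOC1S1 and is therefore uncertain, was at 88.6, 89.9, 87.9 and 77.05 CPM in retina and at 239.5, 284, 339.9 and 469 CPM in RPE/choroid (-1.92 ± 0.19, adjusted p = 3.69e-05).

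Genes of melanin synthesis and the melanosome were higher in RPE/choroid for all 13 tested, each by at least 4-fold, with a median of -6.002. Besides TYR and PMEL, TYRP1, a melanosomal enzyme, was at 36.2, 34.8, 37.4 and 25.6 CPM in retina and at 2136, 2429.7, 2159.7 and 1874 CPM in RPE/choroid (-6.002 ± 0.17, adjusted p = 8.35e-08). DCT, dopachrome tautomerase, was at 0.4396, 0.374, 0.233 and 0.315 CPM and 40.3, 40.1, 236 and 164 CPM (-8.15 ± 0.60, adjusted p = 8.04e-06). Unlike TYR and TYRP1, DCT in RPE/choroid fell into different ranges in the animals, and its tissue difference was -2.88 ± 0.37 on the log2 scale in RM04 minus RM03 (adjusted p = 0.0216). EDNRB, the endothelin receptor of melanocytes, differed by -5.76 ± 0.39 and MLPH, which links melanosomes to myosin, by -7.71 ± 0.21. GPNMB, a glycoprotein related to PMEL that was listed with the pigment epithelium genes and not here, differed by -8.58 ± 0.43.

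**Figure D3:**
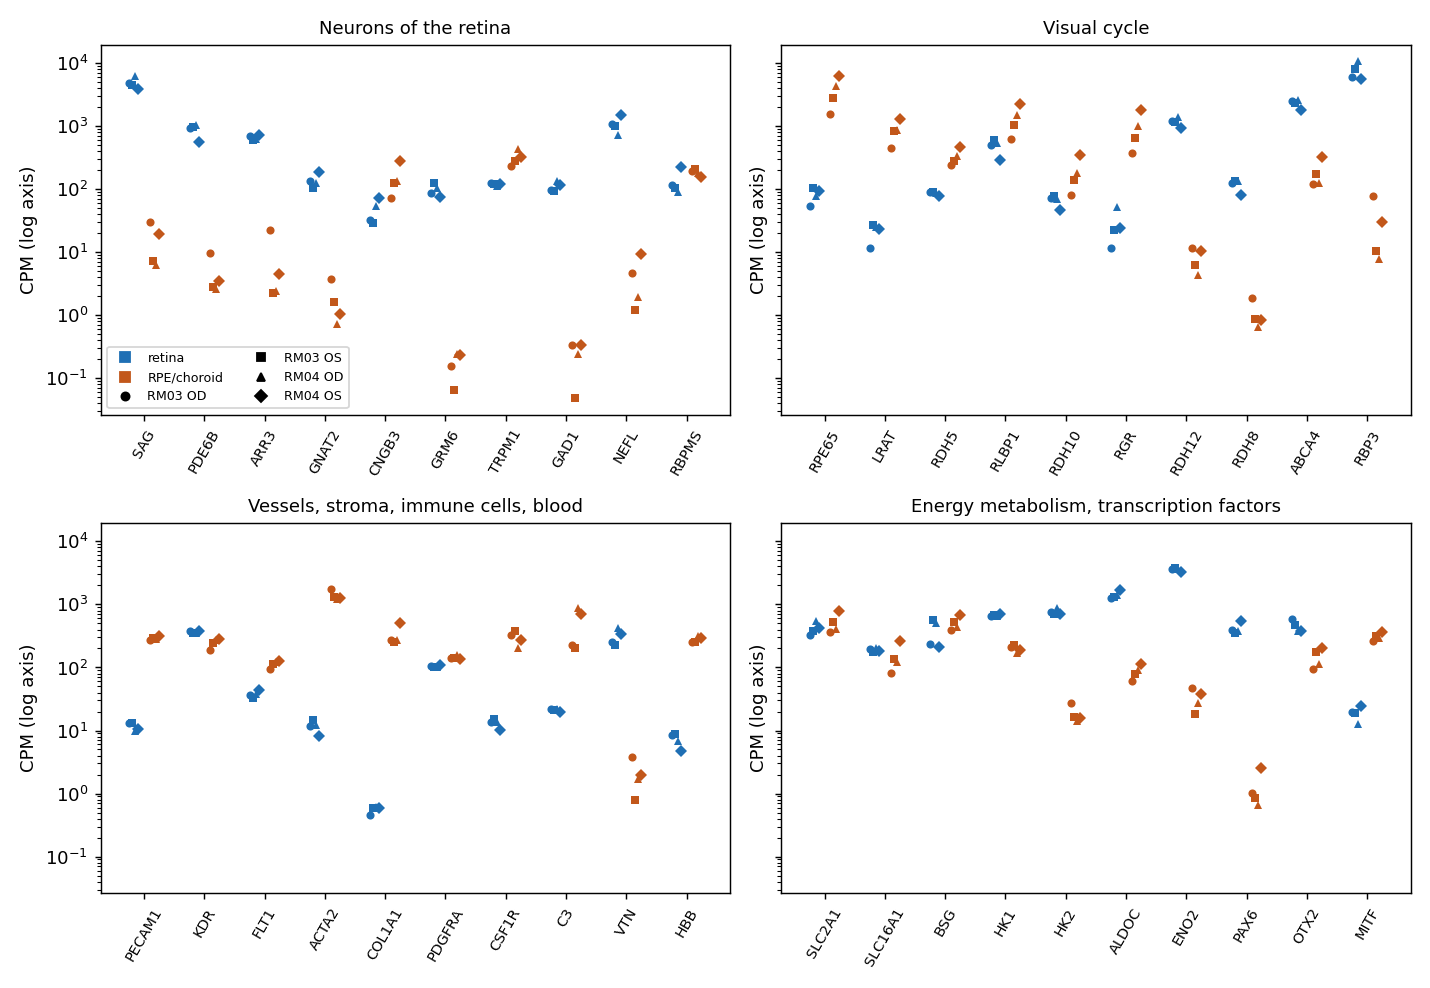
CPM on a log axis (y) for 10 genes in each of 4 panels (x), in the 4 retina (blue) and the 4 RPE/choroid (orange) libraries, with a marker shape for each eye. The tissues are far apart for SAG, GAD1, ACTA2 and PAX6, touch or cross for RBPMS, SLC2A1, SLC16A1 and BSG, and CNGB3, TRPM1, KDR and VTN are reversed against the neighbours of their panel.

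Vessel genes were higher in RPE/choroid, with 17 of 19 endothelial genes (median -4.57) and 14 of 15 genes of smooth muscle and pericytes (median -3.91). PECAM1, an adhesion molecule of endothelium, was at 13.2, 13.3, 9.84 and 10.4 CPM in retina and at 274, 299, 288 and 318 CPM in RPE/choroid (-4.67 ± 0.13, adjusted p = 7.92e-08). CDH5, the endothelial cadherin, was at 7.03, 7.89, 4.72 and 5.06 CPM and 205, 231, 270.1 and 291 CPM (-5.35 ± 0.23, adjusted p = 5.01e-07), with a larger difference in RM04 than in RM03 (-0.97 ± 0.16 in RM04 minus RM03, adjusted p = 0.043). PLVAP, a protein of the diaphragms of fenestrated capillaries such as those of the choroid, was at 2.05, 3.14, 2.13 and 2.37 CPM and 144, 235, 239.6 and 244 CPM (-6.46 ± 0.26, adjusted p = 3.48e-07). VWF, von Willebrand factor, was at 13.1, 16.5, 12.3 and 9.05 CPM and 418, 524, 634 and 942 CPM (-5.60 ± 0.34, adjusted p = 2.66e-06). Of the receptors for VEGF, KDR was the member of the list higher in retina, at 372, 353, 354 and 376 CPM beside 193, 249, 269 and 279 CPM (0.57 ± 0.11, adjusted p = 0.00196), and FLT1 was higher in RPE/choroid like most of the list (-1.57 ± 0.10). CLDN5, the claudin of tight endothelium, was not called, at 2.32, 8.49, 4.102 and 1.06 CPM in retina and 7.34, 7.23, 10.2 and 10.1 CPM in RPE/choroid (-1.19 ± 0.58, adjusted p = 0.0929), and it was called without the RM03 OS retina library (-1.84, adjusted p = 0.00803) and by DESeq2 (-1.23, adjusted p = 0.0299).

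ACTA2, smooth muscle actin, was at 11.9, 14.6, 12.01 and 8.12 CPM in retina and at 1729, 1334, 1229 and 1260.5 CPM in RPE/choroid (-6.90 ± 0.20, adjusted p = 9.04e-08), and MYH11, smooth muscle myosin, at 9.87, 16.7, 13.2 and 12.5 CPM and 1843, 1403, 1509 and 1597 CPM (-6.92 ± 0.22, adjusted p = 1.43e-07). TAGLN, transgelin, for which 2 identifiers exist, was at 17.4, 22.8, 20.1 and 18.4 CPM and 752, 720.5, 483 and 456 CPM (-4.90 ± 0.17, adjusted p = 2.06e-07). RGS5, a gene of pericytes, was less unequal, at 34.4, 28.7, 21.6 and 26.5 CPM and 369, 402, 507 and 495 CPM (-3.995 ± 0.19, adjusted p = 8.49e-07). ABCC9, a channel subunit of pericytes, was the member not called (-0.47 ± 0.49).

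Fibroblast and stroma genes were higher in RPE/choroid for 14 of 16, with a median of -4.74. COL1A1, a chain of type I collagen, was at 0.464, 0.598, 0.617 and 0.593 CPM in retina and at 271, 250.03, 277 and 508 CPM in RPE/choroid (-9.14 ± 0.28, adjusted p = 1.10e-07), and DCN, decorin, at 1.91, 2.21, 2.22 and 3.95 CPM and 1919.6, 699, 1828 and 3266 CPM (-9.51 ± 0.51, adjusted p = 1.41e-06). LUM, lumican, for which 2 identifiers exist, was at 19.95, 18.3, 19.6 and 18.1 CPM and 142, 35.5, 163 and 313 CPM (-2.94 ± 0.52, adjusted p = 0.00113), and like DCN it was lowest in the RPE/choroid of RM03 OS. PDGFRA, a growth factor receptor, differed little, at 105, 103, 102 and 109 CPM in retina and 142, 139, 156 and 137 CPM in RPE/choroid (-0.45 ± 0.07, adjusted p = 5.08e-04). THY1, which ganglion cells also express, and TCF21 were higher in retina (2.24 ± 0.34 and 2.71 ± 0.44).

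In Bruch's membrane, the matrix sheet beneath the pigment epithelium, and in basement membranes, 20 of 25 genes were higher in RPE/choroid and 1 in retina (median -3.58). TIMP3, a metalloproteinase inhibitor held in that membrane, was at 125, 147, 212 and 169 CPM in retina and at 2758, 3565, 2629.5 and 4185 CPM in RPE/choroid (-4.35 ± 0.22, adjusted p = 1.04e-06). The widespread type IV collagen chains COL4A1, at 14.02, 16.3, 12.1 and 11.8 CPM and 306, 279.7, 222 and 266 CPM (-4.31 ± 0.10, adjusted p = 5.19e-08), and COL4A2, at 25.7, 34.9, 35.2 and 23.9 CPM and 306, 231, 184 and 237 CPM (-2.99 ± 0.20, adjusted p = 4.09e-06), were higher in RPE/choroid. COL4A3, a chain of specialised basement membranes, was not called, at 195, 175, 77.6 and 123 CPM and 167, 211, 81.6 and 133 CPM (-0.07 ± 0.20, 95% interval -0.52 to 0.39), and higher in RM03 than in RM04 in both tissues, and COL4A4 was not called either (0.15 ± 0.30). VTN, vitronectin, was the member higher in retina, at 256, 229, 422 and 337 CPM beside 3.84, 0.796, 1.72 and 1.99 CPM in RPE/choroid (7.18 ± 0.53, adjusted p = 7.94e-06).

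All 19 complement genes tested were higher in RPE/choroid, with a median of -4.27. CFI, a protease that inactivates complement, was at 12.2, 11.4, 9.15 and 10.9 CPM in retina and at 40.1, 41.2, 45.7 and 49.9 CPM in RPE/choroid (-2.02 ± 0.12, adjusted p = 2.98e-06). C3, the central component, was even in retina, at 22.2, 21.5, 21.6 and 19.6 CPM, and differed between the animals in RPE/choroid, at 226, 204, 867 and 699.97 CPM (-4.27 ± 0.43, adjusted p = 4.28e-05). The tissue difference of C3 was -1.95 ± 0.20 in RM04 minus RM03 (adjusted p = 0.0147). C1QB, a chain of the initiating complex made by macrophages, was at 5.84, 5.97, 6.37 and 4.75 CPM and 552, 635, 271 and 238 CPM (-6.08 ± 0.29, adjusted p = 7.78e-07), with more in the RPE/choroid of RM03 than of RM04.

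Immune and blood genes followed the same direction. All 16 macrophage and microglia genes were higher in RPE/choroid (median -5.26), although microglia reside in the retina as well. CSF1R, the receptor that sustains macrophages, was at 13.8, 15.4, 13.7 and 10.01 CPM in retina and at 331, 377, 200.3 and 273 CPM in RPE/choroid (-4.46 ± 0.17, adjusted p = 2.67e-07), and CD163, a scavenger receptor of tissue macrophages, at 2.83, 3.31, 5.29 and 2.595 CPM and 191, 251, 129 and 102 CPM (-5.51 ± 0.38, adjusted p = 5.38e-06). CX3CR1, the fractalkine receptor of microglia and monocytes, was at 6.79, 5.46, 6.57 and 7.43 CPM and 16.5, 8.63, 43.5 and 42.7 CPM (-1.84 ± 0.37, adjusted p = 0.00218), and AIF1 at 3.86, 4.02, 3.22 and 3.36 CPM and 36.1, 38.4, 30.02 and 25.3 CPM (-3.16 ± 0.10, adjusted p = 1.44e-07). The smallest differences of the list were those of P2RY12, a receptor of microglia (-1.22 ± 0.23), and CX3CR1.

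Lymphocyte and mast cell genes were higher in RPE/choroid for 10 of 12 tested. The mean log2 CPM of the list was -0.55 in retina and 2.66 in RPE/choroid. PTPRC, the common leukocyte antigen, was at 16.2, 10.7, 12.2 and 7.397 CPM in retina and at 31.4, 49.3, 58.2 and 49.1 CPM in RPE/choroid (-2.02 ± 0.28, adjusted p = 3.02e-04). The T cell genes CD3E, at 0.171, 0.224, 0.567 and 0.389 CPM and 5.34, 5.104, 11.7 and 11.98 CPM (-4.65 ± 0.19, adjusted p = 3.98e-07), and CD2, at 0.318, 0.206, 0.217 and 0.167 CPM and 4.16, 3.998, 9.36 and 8.13 CPM (-4.74 ± 0.36, adjusted p = 9.25e-06), were higher in RPE/choroid. CPA3, a mast cell protease, did not exceed 0.0793 CPM in any library and was not tested. The 2 genes of the list that were higher in retina were HDC, histidine decarboxylase (3.002 ± 0.75), and MS4A2, an IgE receptor chain (0.69 ± 0.20). Of the red cell genes all 6 tested were higher in RPE/choroid. The globin genes HBB, at 8.57, 8.77, 6.79 and 4.67 CPM and 253, 258, 312 and 297 CPM (-5.30 ± 0.23, adjusted p = 4.99e-07), and HBA1, at 1.69, 1.16, 1.55 and 1.08 CPM and 57.6, 65.8, 149 and 121 CPM (-6.07 ± 0.32, adjusted p = 1.39e-06), were above every retina library in the RPE/choroid of all 4 eyes. ALAS2, which starts haem synthesis in red cells, was at 0.147, 0.206, 0.0334 and 0.0371 CPM and 4.996, 5.36, 2.13 and 1.93 CPM (-5.17 ± 0.27, adjusted p = 1.32e-06), and SLC4A1, the red cell anion exchanger, at 0.0977, 0.206, 0.1001 and 0.1298 CPM and 0.365, 0.601, 0.378 and 0.273 CPM (-1.56 ± 0.35, adjusted p = 0.00415).

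Genes of Schwann cells, which wrap the peripheral nerves that cross the choroid, were higher in RPE/choroid for 13 of 14 tested (median -6.62), with the largest eye-to-eye spread of any list. PRX, periaxin, a protein of peripheral myelin, was at 1.76, 2.39, 2.52 and 2.61 CPM in retina and at 1094, 15.5, 14.5 and 322 CPM in RPE/choroid (-7.03 ± 1.59, adjusted p = 0.00424), and PMP2, a lipid-binding myelin protein, at 0.342, 0.374, 0.267 and 0.371 CPM and 446, 2.19, 3.38 and 141 CPM (-8.58 ± 1.98, adjusted p = 0.00458). RM03 OD and RM04 OS were high for both and RM03 OS and RM04 OD low, in an order that follows neither the animal nor the side. DRP2, the partner of periaxin, was at 5.495, 5.72, 8.42 and 8.99 CPM in retina and at 329.8, 0.6502, 0.361 and 97.3 CPM in RPE/choroid, so that it was above the retina in 2 eyes and below it in the other 2, and it was not called (-3.67 ± 1.85, adjusted p = 0.104), although DESeq2 called it (-3.71, adjusted p = 0.0309).

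The summed CPM of the Schwann list in RPE/choroid ranged from 679 to 12910.0, a ratio of 19.02 between libraries, while that of the endothelial list varied by a ratio of 1.59. Without the RPE/choroid libraries of RM03 OD and RM04 OS, an alternative chosen after these values were seen, 12 of the 14 genes were still called higher in RPE/choroid, with a median of -2.87. PRX then differed by -2.71 (adjusted p = 8.90e-05). DRP2 turned toward retina (3.76), a direction set by leaving out the RPE/choroid libraries in which it was above the retina. CDH19, a cadherin of Schwann cells that is not part of myelin, was even across the eyes, at 144, 108, 112 and 90.4 CPM in RPE/choroid and 0.318, 0.281, 0.117 and 0.185 CPM in retina (-9.01 ± 0.23, adjusted p = 6.50e-08).

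**Figure D4:**
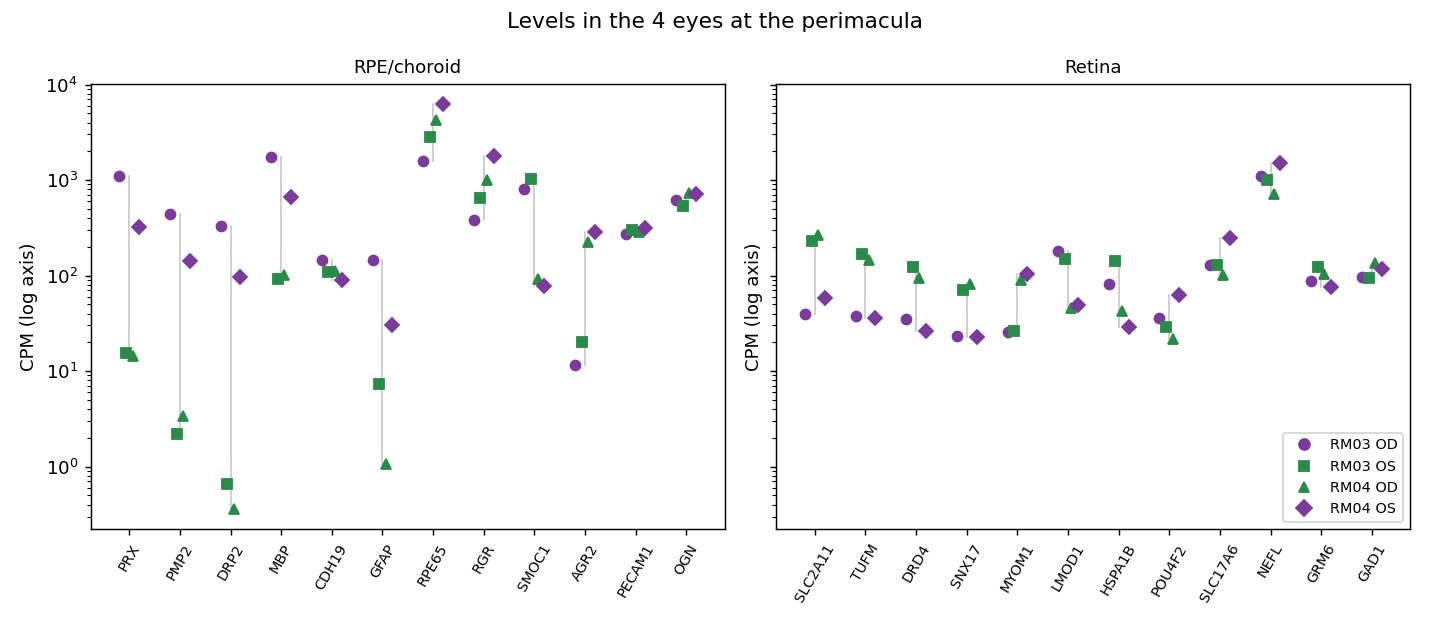
CPM on a log axis (y) of named genes (x) in the 4 RPE/choroid libraries (left) and the 4 retina libraries (right), with a marker shape for each eye and purple for RM03 OD and RM04 OS and green for the other eyes; grey lines span the range. In RPE/choroid, PRX, PMP2, DRP2, MBP and GFAP were high in the purple eyes while PECAM1, OGN and CDH19 were even, and in retina SLC2A11, TUFM, DRD4 and SNX17 were low in the purple eyes.

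Most enzymes of glucose use were higher in retina, whereas the lactate transporters SLC16A1, SLC16A3 and SLC16A7 and the glucose transporter SLC2A1 were not called. Of 20 genes, 14 were higher in retina, none in RPE/choroid and 6 were not called, with a median of 1.26, and 8 of the listed symbols are carried by several identifiers. SLC2A1, the glucose transporter of both barriers, was at 321, 377, 554 and 427 CPM in retina and at 365, 517, 409 and 778 CPM in RPE/choroid (-0.31 ± 0.22, adjusted p = 0.231). SLC16A1, a lactate transporter, was at 195, 175, 202 and 179.5 CPM and 81.2, 138, 122 and 266 CPM (0.37 ± 0.29, adjusted p = 0.282), with more than the retina in the RPE/choroid of RM04 OS and less in the other 3 eyes. SLC16A3 was at 8.79, 15.6, 15.7 and 20.9 CPM and 13.5, 14.6, 21.9 and 32.6 CPM (-0.39 ± 0.22, adjusted p = 0.143), and SLC16A7 at 4.91, 3.33, 1.101 and 6.38 CPM and 12.7, 14.4, 7.48 and 2.97 CPM (-1.11 ± 0.58, adjusted p = 0.114), both lactate transporters that were low. Among the fits that left out a library, each of these 4 transporters was called in the fit named here and in no other. SLC2A1 was called without the RPE/choroid library of RM04 OD (-0.50, adjusted p = 0.038) and SLC16A1 without that of RM04 OS (0.71, adjusted p = 0.0116). SLC16A3 was called without the retina library of RM03 OS (-0.61, adjusted p = 0.0183) and SLC16A7 without that of RM04 OS (-1.94, adjusted p = 0.00292). BSG, their chaperone basigin, was at 237, 560.4, 504 and 210.3 CPM in retina and 398, 534, 446 and 676 CPM in RPE/choroid (-0.44 ± 0.36). Among the enzymes, HK2, an inducible hexokinase, was at 762, 697, 869.9 and 714 CPM in retina and 27.2, 16.1, 14.4 and 15.8 CPM in RPE/choroid (5.39 ± 0.24, adjusted p = 5.95e-07), ENO2, the neuronal enolase, differed by 6.78 ± 0.35, ALDOC, the aldolase of neural tissue, by 4.06 ± 0.15, and the widespread hexokinase HK1 by 1.76 ± 0.10.

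Nuclear genes of oxidative phosphorylation were higher in retina for 28 of 37 tested, none was higher in RPE/choroid, and no difference reached 4-fold (median 0.75). Several identifiers carry 19 of the symbols, so many entries of this list are uncertain. NDUFA5, a subunit of complex I, was at 60.01, 52.1, 51.1 and 61.5 CPM in retina and at 28.04, 30.9, 35.2 and 36.4 CPM in RPE/choroid (0.79 ± 0.10, adjusted p = 2.06e-04), and NDUFA4 at 218, 204, 206 and 202 CPM and 87.6, 84.1, 91.2 and 86.7 CPM (1.25 ± 0.07, adjusted p = 1.42e-06). NDUFA2, at 17.5, 20.5, 21.8 and 14.02 CPM and 16.7, 15.2, 15.97 and 16.7 CPM (0.19 ± 0.15, adjusted p = 0.262), was not called. NDUFA1 was near 0 in both tissues of RM03 and not in RM04, at 0.147, 0.0935, 67.7 and 85.98 CPM in retina and 0.0952, 0.228, 60.6 and 59.8 CPM in RPE/choroid (0.21 ± 0.23, adjusted p = 0.429).

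Junction genes were mostly higher in RPE/choroid, 12 of 17 (37.5% of all genes were), with 3 higher in retina (38.6%). CDH1 (-5.28 ± 0.12) and CDH3 (-5.02 ± 0.27), cadherins of epithelia, were higher in RPE/choroid, while CDH2, the neural cadherin, was higher in retina (4.03 ± 0.15). CLDN1, at 0.391, 0.355, 0.417 and 0.686 CPM in retina and 4.54, 2.13, 1.17 and 2.56 CPM in RPE/choroid (-2.43 ± 0.46, adjusted p = 0.00171), and CLDN2, at 0.0244, 0.0561, 0.0334 and 0 CPM and 1.47, 2.698, 0.443 and 0.351 CPM (-5.15 ± 0.56, adjusted p = 6.68e-05), were low in both tissues. CLDN3 did not exceed 0.117 CPM in RPE/choroid and 0.0748 CPM in retina and was not tested.

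Transcription factors of the neural retina were higher in retina for 21 of 29, with a median of 4.23. CRX, a regulator of photoreceptors, was at 204, 189.98, 127 and 92.5 CPM in retina and at 5.77, 10.2, 6.401 and 8.97 CPM in RPE/choroid (4.23 ± 0.28, adjusted p = 4.14e-06). NRL, which sets the rod fate, was at 1099, 1214, 1606 and 835 CPM and 9.44, 2.13, 2.71 and 5.36 CPM (7.94 ± 0.61, adjusted p = 1.02e-05), and NR2E3, its target, at 171, 305, 351 and 127 CPM and 1.49, 0.488, 0.755 and 1.405 CPM (7.85 ± 0.56, adjusted p = 6.55e-06). The margin of CRX was the smallest of these 3 genes. NEUROD2 and FOXI3 had no count in any RPE/choroid library, so that with a floor of 3 counts per library NEUROD2 was at least 128-fold higher in retina and FOXI3 at least 31.1-fold. The factors shared by the tissues in development took separate ways. PAX6 was at 394, 355, 379.6 and 544 CPM in retina and at 1.03, 0.861, 0.657 and 2.58 CPM in RPE/choroid (8.39 ± 0.46, adjusted p = 1.66e-06), OTX2 was substantial in both (587, 468, 381 and 376 CPM and 93.9, 177, 116 and 207 CPM, 1.60 ± 0.28), and LHX2 was not called (0.69 ± 0.35). SOX9 (-1.32 ± 0.13), NR2F1 (-1.62 ± 0.22) and PRDM1 (-0.82 ± 0.18) were higher in RPE/choroid.

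Of 33 transcription factors of pigment epithelium and choroid, 22 were higher in RPE/choroid (37.5% of all genes were), 5 in retina (38.6%) and 6 were not called (median -1.93). By at least 4-fold, 16 were higher in RPE/choroid (17.3% of all genes were) and 3 in retina (11.9%), with a largest log2 fold change toward retina of 8.39. The summed CPM of the list in retina was 76.6 to 93.8% of that in the RPE/choroid of the same eye. MITF, the regulator of pigment cells, was at 19.6, 18.6, 12.9 and 24.4 CPM in retina and at 263, 316, 294 and 367 CPM in RPE/choroid (-4.04 ± 0.22, adjusted p = 1.57e-06), and its relative TFEC at 0.611, 0.655, 0.534 and 0.315 CPM and 5.14, 7.44, 6.57 and 5.13 CPM (-3.54 ± 0.26, adjusted p = 7.00e-06). SOX17, a factor of arterial endothelium, was at 0.293, 0.879, 0.684 and 0.352 CPM and 10.1, 10.1, 7.91 and 9.87 CPM (-4.08 ± 0.35, adjusted p = 1.95e-05). FOXC1, a factor of mesenchyme around the eye, was at 2.08, 1.65, 1.03 and 1.32 CPM and 61.8, 62.5, 60.4 and 69.8 CPM (-5.42 ± 0.20, adjusted p = 2.58e-07) and even across the eyes. PRRX1 (-7.15 ± 0.17) and TBX18 (-7.01 ± 0.51), factors of mesenchyme, had larger differences, and FOXD3, a factor of neural crest, differed by -9.47 ± 0.56.

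The study paired genes of RPE/choroid with partner genes of retina as ligands and receptors, and it chose the pairs on contrasts between locations in these animals, so their direction is not independent evidence. Of 66 different pairs, 64 had both partners tested. In 9 pairs each partner was called higher in the tissue in which it was placed, in 7 each was higher in the other tissue, in 26 both were higher in RPE/choroid, in 5 both were higher in retina, and in 17 a partner was not called. The partners placed in RPE/choroid had a median log2 fold change of -2.09, with 33 of 50 higher in RPE/choroid (37.5% of all genes were), and those placed in retina one of -1.07, with 14 of 53 higher in retina (38.6% of all genes were). The growth factor receptor FGFR1 (-3.32 ± 0.25) with the adhesion molecule NCAM1 (1.11 ± 0.11) was a pair of the placed kind. TEK, the angiopoietin receptor, and its ligand ANGPT1, placed in retina, were both higher in RPE/choroid (-3.70 ± 0.18 and -7.05 ± 0.30). CSF1R and its ligand IL34 were likewise both higher there (-4.46 ± 0.17 and -4.59 ± 0.20). VEGFA, placed on both sides in different pairs, was at 176, 134, 179 and 253 CPM in retina and 86.4, 138, 159 and 268 CPM in RPE/choroid (0.24 ± 0.24, adjusted p = 0.381).

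Some abundant genes had a narrow interval around no difference. Those with the highest mean log2 CPM and a 95% interval within -0.5 to 0.5 included EIF4G2 and NCL, which act in translation and in the nucleolus, SRRM2, a splicing protein, MACF1, a cytoskeletal linker, ATN1, WNK1, a kinase, and GLUL. For GLUL the difference was toward retina in both eyes of RM03 and toward RPE/choroid in both eyes of RM04. NCL was at 545, 504, 499 and 533 CPM in retina and 539, 527, 508 and 491 CPM in RPE/choroid, with an interval of -0.16 to 0.19. SRRM2 was called nevertheless (0.26 ± 0.10, adjusted p = 0.046), and its interval ran from 0.02 to 0.49.

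Genes of each tissue were also detected in the other, at levels that differed between gene groups. In RPE/choroid, SAG was at 0.0984 to 0.634% of the level in the retina of the same eye, PDE6B at 0.243 to 1.05%, ARR3 at 0.372 to 3.25% and GRM6 at 0.0525 to 0.307%. For the rod list, the median over genes ranged from 0.249% to 1.41% over the eyes, and it was highest in RM03 OD. In retina, RPE65 was at 1.47 to 3.66% of the RPE/choroid level of the same eye, LRAT at 1.78 to 3.27%, TTR at 2.08 to 4.43% and BEST1 at 2.08 to 5.76%. PMEL and TYR were far lower there, at 0.0566 to 0.104% and 0.0638 to 0.101%, and COL1A1 and DCN were at 0.117 to 0.239% and 0.0992 to 0.316%. Among the endothelial genes, PECAM1 was at 3.27 to 4.82% and PLVAP at 0.891 to 1.42%. What part of these levels came from cells of the other layer left on a piece was not tested.

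**Figure D5:**
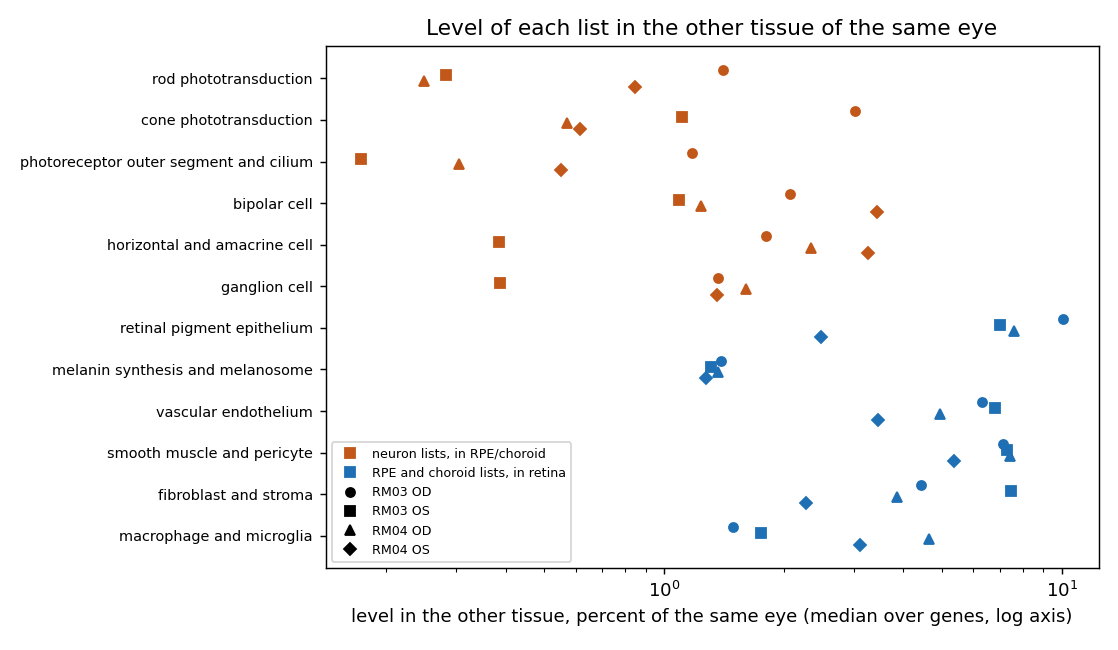
For each gene list (y axis), the level in the other tissue as a percent of that in the list's own tissue of the same eye (x axis, log scale, median over the genes of the list), with orange for neuron lists measured in RPE/choroid, blue for RPE and choroid lists measured in retina, and a marker shape for each eye. Rod genes lay between 0.249% and 1.41%, pigment epithelium genes between 2.48% and 10.1%, and melanosome genes between 1.28% and 1.39%.

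Eye-to-eye spread was similar in the tissues for most genes, with a median SD of 0.232 log2 units over the 4 retina libraries and 0.209 over the 4 of RPE/choroid, but an SD above 1 was reached by 997 genes in RPE/choroid and by 526 in retina. The genes of largest SD that averaged at least 5 log2 CPM fell into the same 2 patterns in both tissues. In RPE/choroid, PRX, MBP and SFRP4 were high in RM03 OD and RM04 OS, MBP at 1738, 90.97, 100.3 and 662 CPM, and EEF1A1, AGR2, CNMD and SMOC1 followed the animal. AGR2, a secretory protein chaperone, was at 11.5, 19.99, 225 and 286 CPM, CNMD, chondromodulin, at 8.69, 14.7, 149.9 and 137 CPM and SMOC1, a matrix protein, at 812, 1029.7, 92.6 and 78.03 CPM. In retina, SLC2A11 was at 39.7, 229, 265 and 58.2 CPM, the mitochondrial elongation factor gene TUFM at 37.8, 169, 146 and 35.6 CPM, the dopamine receptor gene DRD4 at 34.7, 123, 95.001 and 26.2 CPM and SNX17, a sorting nexin, at 23.2, 70.2, 81.1 and 22.9 CPM, all lower in RM03 OD and RM04 OS than in the other 2 eyes. In RPE/choroid the spread was smaller, with TUFM at 126, 132, 132 and 149.7 CPM, SNX17 at 117, 122, 124 and 138 CPM and SLC2A11 at 168, 147, 159 and 171 CPM. DRD4 was at 7.74, 10.7, 8.35 and 7.901 CPM there. The SD in RPE/choroid was 0.216 log2 units for DRD4 and 0.097 for SLC2A11, near or below the median of 0.209, so the order of the eyes was not read as a pattern.

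The other 4 genes of that group in retina followed the animal. LMOD1, a smooth muscle protein, was at 179.9, 148, 45.2 and 49.5 CPM, MYOM1, a muscle protein, at 25.6, 26.3, 88.9 and 103 CPM and HSPA1B, a heat shock protein, at 81.4, 140.4, 42.5 and 29.2 CPM. The mitochondrial gene MT-ND1 was at 4.37, 3.53, 279 and 312 CPM in retina and at 2.55, 2.13, 259 and 273 CPM in RPE/choroid, and EEF1A1, whose symbol several identifiers carry, at 317, 293, 0.767 and 0.983 CPM and 777, 742, 1.62 and 1.81 CPM. In both tissues, MT-ND1 was low in RM03 and this EEF1A1 entry was low in RM04. Of the ganglion cell genes, POU4F2 was at 35.8, 28.99, 21.5 and 62.8 CPM and SLC17A6 at 130.2, 129.7, 101 and 249.7 CPM in retina, highest in RM04 OS and lowest in RM04 OD, and the summed CPM of that list ranged from 3333 to 7069. Over all genes tested, the tissue difference itself differed between the animals for 271 (1.74%).

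The tissue difference at the perimacula was compared with those at other locations in a fit of all 32 libraries with 16382 genes tested. It differed from that at the fovea/macula for 2494 genes (15.2%), from that at the nasal location for 139 (0.848%), and from that at the periphery for 3099 (18.9%). The periphery libraries were sequenced on another flow cell, so location and flow cell cannot be told apart there. Leaving out an eye moved these counts to between 867 and 1890, between 7 and 49, and between 1805 and 2456. The count for the fovea/macula was lowest without RM04 OD, that for the nasal location without RM03 OD, and that for the periphery without RM04 OS.

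The 5 largest differences from the fovea/macula toward a higher retina level at the perimacula included 3 rod genes. SAG averaged 4767 CPM in perimacular retina and 1409 CPM in foveal retina, and 15.8 and 52.4 CPM in the RPE/choroid of these locations, so that its tissue difference was larger at the perimacula by 3.30 ± 1.01 log2 units (adjusted p = 0.027). The rod gene GNGT1 (3.86 ± 1.15), phosducin gene PDC (3.43 ± 0.80), the anion transporter gene SLC26A7 (3.44 ± 0.68) and TF, transferrin (3.36 ± 0.82), whose entry is listed as a locus number, completed the group. Calls for these 5 held in 2 or 3 of the 4 fits that left out an eye. In the other direction, PRX (-4.11 ± 1.32) and the Wnt inhibitor gene SFRP1 (-6.36 ± 1.48) had more in perimacular RPE/choroid, PRX with 362 CPM there and 18.7 CPM at the fovea/macula, as did RELN (-4.16 ± 1.21). The direction of PRX and RELN was shared by 2 of 4 eyes. Over the 4 eyes, the tissue difference at the perimacula had an SD of 3.50 log2 units for SFRP1, 3.31 for PRX and 2.91 for RELN. Of the 4 fits that left out an eye, the call for SFRP1 held in 3, that for RELN in 2 and that for PRX in none.

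Against the nasal location, PAX6 had a larger tissue difference at the perimacula by 2.25 ± 0.53 log2 units (adjusted p = 0.0398), with 1.27 CPM in perimacular and 4.94 CPM in nasal RPE/choroid. MAB21L1, a gene of eye development, differed by 2.32 ± 0.34, PRUNE2 by 2.32 ± 0.32, FAR2 by 1.64 ± 0.40 and TBC1D30 by 1.59 ± 0.35. The 5 largest differences in the other direction were HHATL (-3.07 ± 0.66), SPHKAP (-2.95 ± 0.44), the sodium pump gene ATP1A4 (-2.05 ± 0.43), the tetraspanin gene TSPAN10 (-1.80 ± 0.42) and SPP1, osteopontin (-1.69 ± 0.32). HHATL (3.03 against 6.19 at the nasal location) and SPHKAP (0.952 against 3.91) were higher in retina by less at the perimacula. TSPAN10 (-7.21 against -5.38) and SPP1 (-2.69 against -0.934) were higher in RPE/choroid by more at the perimacula. ATP1A4 was higher in RPE/choroid at the perimacula (-1.79) and higher in retina at the nasal location (0.331). SPP1 averaged 272 CPM in perimacular and 588 CPM in nasal retina. All 10 genes moved in the stated direction in 4 of 4 eyes, but the calls for PAX6, FAR2, HHATL, TSPAN10 and SPP1 held in no fit that left out an eye. The call for TBC1D30 held in 1 of these 4 fits, that for ATP1A4 in 2, and those for MAB21L1, PRUNE2 and SPHKAP in 3. Of the 96 genes given in every library that were tested in this fit, 27 had a tissue difference that differed from the fovea/macula (15.2% of all genes did), 2 from the nasal location (0.848%) and 33 from the periphery (18.9%).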

How the data were processed

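Neural retina and RPE/choroid RNA was sequenced as poly-A selected, paired-end libraries. The authors quantified reads with Salmon 0.13 against Mmul_8.0.1 and deposited, for each lane, values per gene in a column headed TPM. Their totals differ between lanes as read numbers do and not as TPM would, and the methods name length-scaled output of tximport. The deposited values were therefore treated as estimated counts that the authors imported from Salmon with tximport, a reading that the files do not state. Nothing in the files marks which reads map to more than 1 gene, so entries among the 2810 genes whose symbol several identifiers carry are uncertain. Here, the 5 lane files of each perimacula library were summed and rounded to whole numbers, 10 repeated entries were dropped, leaving 19422 genes, and symbols were taken from the files, with 4 found by their human symbol. No genome position is given, because the annotation at hand is of another build.

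Counts were scaled by TMM and filtered with filterByExpr (minimum count 10), and edgeR 4.0.16 fitted quasi-likelihood models in R 4.3.3 with the animal and the tissue as terms, for the 8 perimacula libraries or, for the comparison between locations, for all 32. DESeq2 1.42.0 served as an alternative tool, and limma 3.58.1 was loaded beside edgeR without a fit of its own. The summaries and figures were made in Python 3.11.15 (pandas 2.3.3, numpy 2.4.6, scipy 1.17.1, matplotlib 3.10.9). The steps were tested on simulated data. Levels on the log2 scale used a prior count of 2, and a gene at 0 in every library of a tissue was given a floor of 3 counts per library. Library totals of 42448891 to 66331817 estimated counts set the precision of low genes, and replicate pairs differed by 11.1 to 42.4 times the variance of counting alone.

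Retina and RPE/choroid libraries share an eye. Deviations from the tissue means were correlated between a retina and an RPE/choroid library. The correlations were 0.176 to 0.193 within an eye, 0.177 to 0.229 between fellow eyes and -0.24 to -0.167 between animals. Deviations cancel out over the libraries of a tissue, so positive values within an animal bring negative ones between animals. The eye was tried as a replicate block. Genes named are the members of fixed lists and ligand-receptor pairs, the first 4 of each list with every library's value, the 12 largest called differences in each direction without overlap and averaging at least 5 log2 CPM, the 8 most abundant genes with a 95% interval within -0.5 to 0.5, the 5 largest differences between locations in each direction that averaged at least 3 log2 CPM, and the 8 genes of largest SD in each tissue that averaged at least 5 log2 CPM. The comparison, its lists and its genes were chosen with earlier results of these data known. Alternatives changed the scaling, filter, tool, covariate, libraries, lanes and depth. Listed symbols without an entry were not analysed here, some genes that the rule names are not reported here, and promoter motifs were not searched.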

Additional observations from a re-analysis of the deposited data

Results flagged for a closer look

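Tests of the difference itself called the genes that follow between the perimacula and another location. Values are in log2 units, as the tissue difference at the perimacula minus that at the other location. The calls for PRX, PAX6, FAR2, HHATL, TSPAN10 and SPP1 held in no fit that left out an eye. Against the fovea/macula they were GNGT1 (3.86), SLC26A7 (3.44), PDC (3.43), TF (3.36) and SAG (3.30) in one direction, and SFRP1 (-6.36), RELN (-4.16) and PRX (-4.11) in the other. SFRP1 averaged 91.2 CPM in perimacular RPE/choroid and 4.34 CPM at the fovea/macula, and in retina 5.17 and 20.7 CPM. Its tissue difference at the perimacula was uneven over the eyes, with a mean of -1.93 and an SD of 3.50 log2 units. SLC26A7 was higher in RPE/choroid than in retina at both locations, with 26.6 and 43.6 CPM in RPE/choroid and 6.58 and 0.985 CPM in retina. Against the nasal location they were MAB21L1 (2.32), PRUNE2 (2.32), PAX6 (2.25), FAR2 (1.64), TBC1D30 (1.59) and the listed COL4A3 (1.24) in one direction, and HHATL (-3.07), SPHKAP (-2.95), ATP1A4 (-2.05), TSPAN10 (-1.81), SPP1 (-1.69) and the listed TFAP2B (-1.30) in the other. COL4A3 (adjusted p = 0.0479) and TFAP2B (adjusted p = 0.0412) were close to the threshold, and their calls were not followed over fits without an eye. MAB21L1 was nearly even between the locations in retina, at 81.9 and 85.2 CPM, and lay at 1.82 and 9.54 CPM in perimacular and nasal RPE/choroid.

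The tissue difference also differed between the animals, as RM04 minus RM03, for 5 of the genes given in every library, SLC1A3 (1.46), AQP4 (1.94), DCT (-2.88), CDH5 (-0.97) and C3 (-1.95). Picked from all genes only once the values were known, the largest such differences were NPTX1 (5.49), SAMD11 (5.33) and CACNA1B (4.84) in one direction and GPR4 (-5.91), IQSEC3 (-4.30) and MAP4K1 (-4.06) in the other. GPR4, a receptor of endothelium, was higher in retina in both eyes of RM03, by 1.60 and 1.52 log2 units, and lower in both eyes of RM04, where the differences were -4.15 and -4.40.

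In 8 of 172 groups of 4 libraries, a library stood apart from the other 3 by Dixon's ratio, and chance gives such a result in about 1 in 20 groups. In RPE/choroid these were RM03 OD for PDE6B (9.64 CPM), ARR3 (22.3 CPM) and PLVAP (144 CPM), RM04 OS for COL1A1 (508 CPM) and RM04 OD for SOX17 (7.91 CPM). In retina they were RM04 OD for CPLX3 (469 CPM) and RM04 OS for DCN (3.95 CPM) and RDH5 (77.0 CPM).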

How the results depend on the processing

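The counts of genes that differed between the tissues at the perimacula, in both directions and at 4-fold, stayed within 1.5 times their values under every alternative run, from scaling, filters, tool and covariate to single animals, single flow cells, thinned depth and each library left out. Paired by eye, with the eye as a replicate block, 11338 genes were called in place of 11824, and 2300, 116 and 2931 tissue differences differed from the fovea/macula, the nasal location and the periphery, with the calls for PRX (adjusted p = 0.0564) and FAR2 (adjusted p = 0.0731) lost. Upper quartile scaling moved the median of all genes to 0.11. Of 374 called list members, between 355 and 374 kept their call wherever all had a value, and none changed sign. Of 95 genes followed singly, 80 kept their side of the threshold throughout. Without the RPE/choroid libraries of RM03 OD and RM04 OS, chosen after seeing the data, GFAP (2.75) and DRP2 (3.76) turned toward retina. In RM03 alone PRKCA (0.99), CX3CR1 (-1.05) and RLBP1 (-0.62) lost their call and GLUL gained one (0.37), in RM04 alone SLC6A9 lost it (0.99), with 3 locations fitted together SLC4A1 lost it (-1.56), and without the retina library of RM04 OS NDUFA2 gained one (0.30). The cause was not tested. The comparison with the nasal location depended most on the processing, with 139 genes called, 408 by DESeq2, 296 with an animal effect for each tissue and 7 to 49 without an eye. Leaving out an eye gave 867 to 1890 genes for the fovea/macula and 1805 to 2456 for the periphery, and DESeq2 gave 926 in place of 271 for the difference between animals. With 4 eyes of 2 animals, no estimate covers variation among animals at large, and folds of genes near the floor of 3 counts per library are the least precise.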
